A study of Rattus norvegicus with 11 samples.

Results

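The striatum of rats with a severe intracerebral hemorrhage was compared with normal striatum over every gene that could be tested. The comparison used 5 of the 11 libraries of the series, the 3 of the IS group and the 2 of the Normal group, taken by their group labels, and 15742 of the 30560 genes in the deposited table. All rats were adult male Sprague-Dawley rats, and each library came from the striatum of 1 rat. IS rats received 0.6 U of collagenase VII-S in 3.0 µL in the right striatum, and 20 to 30 mg of the injected side was taken on day 3. Normal rats had received no collagenase, and no saline or needle control was among the libraries, so the effects of the needle, of the enzyme and of the blood cannot be told apart. Values below are given per rat by the number in its label (IS rats 2, 3 and 4, Normal rats 1 and 3). A shared number did not mark a shared animal.

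Bacterial collagenase dissolves the basement membrane of small vessels, so that blood leaks into the tissue over hours and forms a hematoma. Red cells then break up, hemoglobin and heme are released, resident microglia and blood-derived neutrophils and monocytes enter and clear the debris, and astrocytes around the cavity become reactive. The striatum is made up mostly of GABAergic medium spiny neurons, with a few kinds of interneurons, crossed by myelinated fiber bundles. In bulk RNA a transcript that is lower may come from fewer cells or from less RNA per cell, and these cannot be told apart.

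Levels are CPM, the share of a library's counts scaled up by its TMM-normalized size. A gene was called higher or lower in IS when its log2 fold change was at least 1 in size and its adjusted p was under 0.05 (edgeR, quasi-likelihood F test, Benjamini-Hochberg over all genes tested). Counts assigned to genes were 17379496 and 18486883 in the Normal libraries and 7448205 to 10958581 in the IS libraries. Log2 CPM correlated with a Pearson r of 0.983 between the Normal rats, 0.951 to 0.975 between IS rats and 0.714 to 0.853 between the groups. IS rat 4, the smallest of the 5 libraries, lay furthest from Normal.

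In IS, 2959 genes (18.8% of those tested) were called higher and 2674 (17%) were called lower. The called rises had a median log2 fold change of 2.07 and the called falls one of -1.67, beside 0.02 over all genes tested. Large changes were mostly rises. Among the genes called higher, 881 had a log2 fold change of at least 3 and 297 one of at least 5, whereas 244 of the genes called lower reached -3 and 14 reached -5. Genes called higher held 8.14% and 7.0% of all TPM in Normal rats 1 and 3 and 29.9%, 30.5% and 41.5% in IS rats 2, 3 and 4. Genes called lower held 34.7% and 36.3% in the Normal rats and 14.9%, 14.5% and 10.5% in those IS rats. Because the genes were picked by their change in these same rats, the direction of these shares follows from the call. Groups did not overlap for 2953 of the called rises and 2668 of the called falls. Such a separation follows largely from the call itself, and its share over all genes tested was not counted. Leaving out Normal rat 3 lowered the number of called falls to 1524 and that of called rises to 2109.

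**Figure D1:**
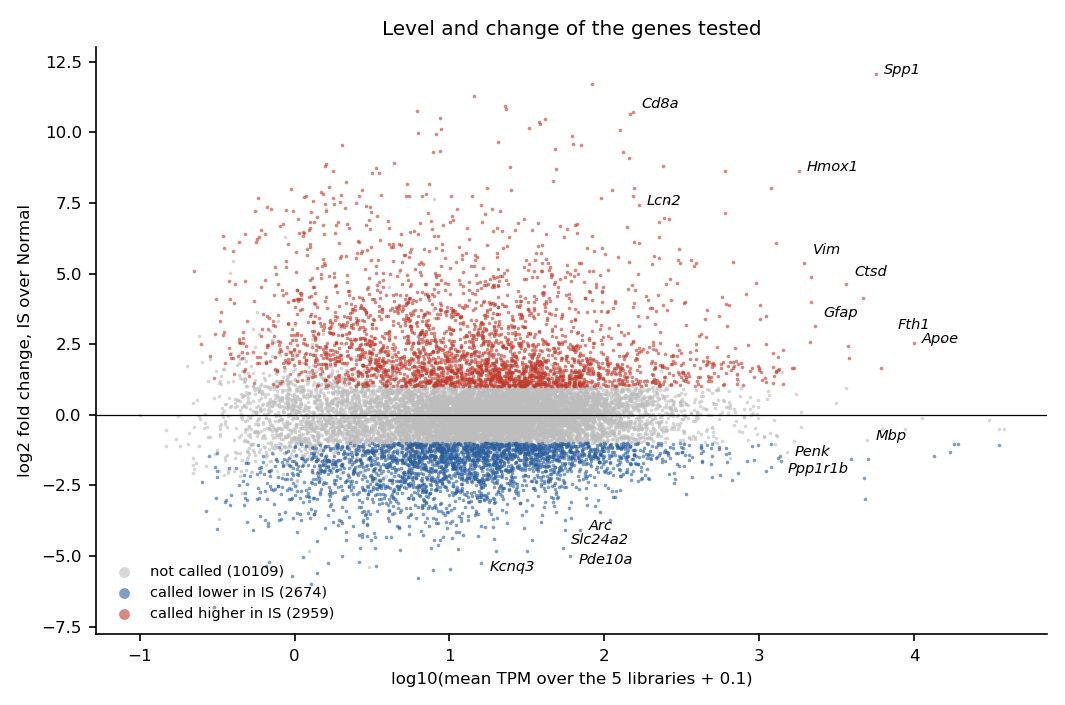
Log2 fold change of IS over Normal (y axis) against the mean TPM over the 5 libraries on a log10 scale (x axis), one point per gene tested, red for the 2959 genes called higher, blue for the 2674 called lower and grey for the rest. The rises reach a log2 fold change of 12.1 (Spp1) and extend to the most abundant transcripts, whereas the labelled abundant neuronal and myelin transcripts lie below 0.

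The 12 largest rises among called genes with a mean TPM of at least 10 were led by Spp1, which encodes osteopontin, a secreted phosphoprotein of phagocytes and healing tissue. Spp1 stood at 0.747 and 2.44 CPM in the Normal rats and at 4478, 4533 and 11920 CPM in IS rats 2, 3 and 4. The log2 fold change was 12.08 (SE 1.06, adjusted p = 3.57e-05), and the groups were far from overlapping. Slpi (leukocyte protease inhibitor), Cd8b, Cxcl2 (a neutrophil attractant) and Trem1 (an amplifying receptor of neutrophils and monocytes) had no count in either Normal rat. Against a floor of 3 counts in the smaller Normal library they were at least 175-fold, 131-fold, 103-fold and 96.1-fold higher. Cxcl2, for example, stood at 8.40, 28.3 and 20.8 CPM in IS rats 2, 3 and 4. Another 6 had 1 to 3 counts over both Normal rats, which leaves their ratio open to counting error. Cd8a had 3 Normal counts and 4482 IS counts (ratio 1670, exact 95% interval 570 to 8090) and Lilrb4, an inhibitory receptor of myeloid cells, had 3 and 4470 (ratio 1660, interval 568 to 8060). Hk3, the hexokinase of leukocytes, had 2 and 2568 (ratio 1430, interval 396 to 11800). Fabp4, a fatty acid carrier, had 1 and 1567, Mcemp1, a membrane protein of myeloid cells, had 1 and 1407, and Serpina3n had 2 and 2526. Serpina3n, a protease inhibitor of reactive astrocytes, was also the most uneven of the 12 among the IS rats, with 176, 13.6 and 50.4 CPM, and it was not called when Normal rat 3 was left out. The last of the 12, named Igsf7 l1 in the file, stood at 0.187 and 0.233 CPM in Normal and at 161, 145 and 402 CPM in IS rats 2, 3 and 4.

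The 12 largest falls by the same rule were led by the ion channel gene Kcnq3 and the phosphodiesterase gene Pde10a. Kcnq3, a subunit of the slow M-type potassium channel, stood at 59.0 and 132 CPM in Normal and at 3.94, 2.61 and 0.688 CPM in IS rats 2, 3 and 4 (log2 fold change -5.24, SE 0.70, adjusted p = 0.000269). Pde10a, the phosphodiesterase concentrated in medium spiny neurons, stood at 209 and 355 CPM in Normal and at 7.26, 13.3 and 5.78 CPM in IS (log2 fold change -4.99, SE 0.61, adjusted p = 0.000160). Even the highest IS rat was well below the lower Normal rat for both. The GABA-A receptor subunit Gabrb2 (log2 fold change -4.83), the actin-binding synaptic scaffold Ppp1r9a (-4.81), the G protein subunit Gng4 (-4.74), the calcium exchanger Slc24a2 (-4.73), the anoctamin Ano3 (-4.42), Lonrf2 (-4.42), Dok6 (-4.37), the synaptic vesicle protein Sv2c (-4.28) and the heparan sulfate enzyme Hs6st3 (-4.24) followed. Sv2c was the most even of them in IS, at 2.01, 2.25 and 2.20 CPM against 30.3 and 53.5 CPM in Normal. Mir212 completed the 12, with 45 counts in Normal and 2 in IS (ratio 0.0496, exact interval 0.00583 to 0.19). It is a primary transcript in these poly(A) libraries, which do not measure the mature miRNA. All 12 genes stood lower in Normal rat 1 than in Normal rat 3.

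**Figure D2:**
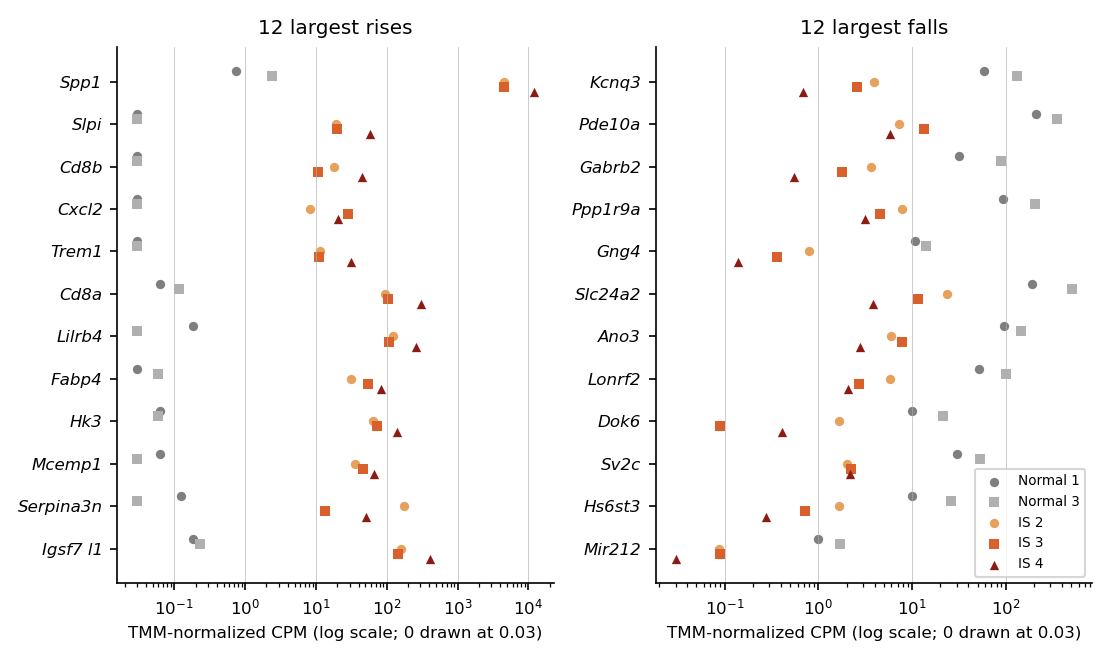
CPM on a log scale (x axis) of the 12 genes with the largest rise (left) and the 12 with the largest fall (right), one point per rat, with 0 drawn at 0.03. In both panels the 3 IS rats and the 2 Normal rats are separated, and IS rat 4 is the highest IS rat for 10 of the rises and the lowest for 10 of the falls.

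Genes that handle the products of a bleed rose, while transcripts of red cells themselves were not called. Hmox1, the inducible heme oxygenase that opens the heme ring and frees its iron, stood at 6.91 and 3.89 CPM in the Normal rats and at 1562, 1884 and 3045 CPM in IS rats 2, 3 and 4 (log2 fold change 8.65, SE 0.58, adjusted p = 3.13e-05). Its constitutive counterpart Hmox2 stood at 78.7 and 72.3 CPM in Normal and at 55.1 to 69.2 CPM in IS and was not called (log2 fold change -0.25). The scavenger receptor Cd163, which takes up hemoglobin bound to haptoglobin, rose from 1.37 and 1.57 CPM to 27.1, 12.7 and 50.3 CPM (log2 fold change 4.34, adjusted p = 0.00109). Of the 12 tested genes of heme breakdown and hemoglobin scavenging, 7 were called higher and none lower, and their median log2 fold change was 1.17. That count fell to 2 without Normal rat 3, to 2 without IS rat 4 and to 4 without Normal rat 1. Ferritin, the iron store, rose in both chains: Fth1 stood at 2203 and 1213 CPM in Normal and at 8227, 9228 and 13720 CPM in IS (log2 fold change 2.61), and Ftl1 had a log2 fold change of 3.98. Slc11a1, the iron transporter of the phagosome, had the largest rise of the 13 tested iron genes (log2 fold change 5.79), of which 7 were called higher and none lower. Transferrin (Tf, log2 fold change 0.82) and its receptor (Tfrc, 0.19) were not called. Among 18 genes of the Nrf2 program and antioxidant enzymes 7 were called higher, with Gpx1 (3.40) and Prdx1 (2.04) among the most abundant, and 1 was called lower. The lower one was Slc7a11, the cystine carrier that feeds glutathione synthesis, at 23.2 and 40.1 CPM in Normal and 17.1, 7.64 and 5.51 CPM in IS, a call that was lost without Normal rat 3, IS rat 3 or IS rat 4. None of the 4 tested erythroid transcripts was called by edgeR, none had an unadjusted p under 0.05, and none was called by DESeq2's Wald test. Hbb, adult beta globin, stood at 78.5 and 63.2 CPM in Normal and at 33.8, 44.0 and 54.0 CPM in IS (log2 fold change -0.69, SE 0.58, adjusted p = 0.334), and Alas2, Epor and Hba-a3 were likewise lower on average without a call.

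Genes of activated phagocytes rose as a group. Of 16 tested genes of activated phagocytes 15 were called higher and none lower, with a median log2 fold change of 4.60. Their summed TPM was 4129 and 3117 in the Normal rats and 31730, 30960 and 69420 in IS rats 2, 3 and 4. The lysosomal proteases Ctsb and Ctsd were among the most abundant transcripts of the IS striatum. Ctsd stood at 267 and 219 CPM in Normal and at 3658, 4138 and 10070 CPM in IS (log2 fold change 4.62, SE 0.65, adjusted p = 0.000375), and Ctsb had a log2 fold change of 4.14. Apoe, the lipid carrier of glia and phagocytes, rose from 3139 and 1979 CPM to 8970, 9586 and 25940 CPM (log2 fold change 2.54), a call lost without Normal rat 3. Of 18 lysosomal genes 15 were called higher and none lower, including the protease Lgmn (4.66) and the sterol carrier Npc2 (3.13). All but 1 of the 8 tested subunits of the phagocyte NADPH oxidase, which makes superoxide, were called higher, led by the cytosolic subunit Ncf1 (6.30). Of 10 genes of cholesterol efflux and lipid droplets 8 were called higher, among them the droplet coat protein Plin2, at 7.28 and 8.72 CPM in Normal and 259, 328 and 433 CPM in IS (5.41).

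The list of resting microglia genes had a lower median. Of 11 tested, 7 were called higher and none lower, with a median of 1.39, and their summed TPM was 290 and 253 in Normal and 757, 699 and 720 in IS rats 2, 3 and 4. The members ranged widely, from -0.38 to 7.32 on the log2 scale. In 1 member a group had no count, and with that member set to its bound the median stayed at 1.39. Csf1r, the receptor for the growth factor that microglia need, stood at 126 and 98.3 CPM in Normal and at 491, 473 and 523 CPM in IS (log2 fold change 2.15, SE 0.19, adjusted p = 3.57e-05). Cx3cr1, the fractalkine receptor, rose by 1.71 on the log2 scale. P2ry12, the purine receptor taken as the mark of resting microglia, stood at 47.2 and 30.7 CPM in Normal and at 59.3, 57.3 and 44.6 CPM in IS. IS rat 4 thus lay below Normal rat 1 for P2ry12, and the gene was not called (log2 fold change 0.47, adjusted p = 0.190). Aif1, the pan-macrophage marker Iba1, stood at 19.8 and 12.5 CPM in Normal and at 177, 193 and 315 CPM in IS (log2 fold change 3.82, adjusted p = 0.000238).

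Markers that are commonly assigned to M1-like or to M2-like phagocytes rose together. All 14 that could be tested were called higher, with a median log2 fold change of 4.92, or 4.35 when Il6, at 0 in both Normal rats, was set to its lower bound. Of the M1-like ones, Cd86, a costimulatory molecule, rose from 1.56 and 0.814 CPM to 12.8, 12.9 and 16.5 CPM (log2 fold change 3.56, adjusted p = 9.95e-05). Nos2, the inducible nitric oxide synthase, stood at 0.249 and 0.233 CPM in Normal and at 4.20, 15.9 and 13.1 CPM in IS (5.46), and Il1b at 0.311 and 0.233 CPM against 6.47, 14.0 and 19.6 CPM (5.57). Tnf rose from 0.373 and 0.349 CPM to 2.54, 2.97 and 3.58 CPM (3.03). Il6 stayed low, at 1.40, 0.989 and 2.07 CPM in IS, and was at least 7.95-fold higher than in Normal. Of the M2-like ones, Arg1, which draws arginine away from nitric oxide synthesis, rose from 1.49 and 3.02 CPM to 75.8, 76.0 and 201 CPM (log2 fold change 5.69, adjusted p = 0.000118). The mannose receptor Mrc1 rose from 4.05 and 3.89 CPM to 61.0, 38.0 and 93.6 CPM (4.01) and Tgfb1 from 6.47 and 5.29 CPM to 59.7, 64.6 and 94.2 CPM (3.63). Cd68, the phagosome glycoprotein shared by both kinds, rose from 1.87 and 2.38 CPM to 200, 162 and 415 CPM (6.92, adjusted p = 3.64e-05), and the lipopolysaccharide co-receptor Cd14 from 0.809 and 0.581 CPM to 72.2, 56.4 and 87.8 CPM (6.68). The scavenger receptor Cd36 had 1 count in Normal and 121 in IS (ratio 135, exact interval 23.8 to 5380), which was 11.6 CPM in IS rat 4 and 2.01 and 1.26 CPM in rats 2 and 3. Cd36 lost its call when either Normal rat was left out. Il10, the main anti-inflammatory interleukin, was too rare to test, with 3 counts in each IS rat and 1 in all of Normal.

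Neutrophil transcripts were present in IS and nearly absent in Normal. Of 11 tested, 10 were called higher and none lower, with a median log2 fold change of 6.71, or 6.61 with the gene at 0 in Normal set to its bound. The summed TPM of all 17 listed neutrophil genes, tested or not, was 6.89 and 7.83 in Normal. It was 938, 915 and 812 in IS rats 2, 3 and 4, so IS rat 4 was not the highest here. The calprotectin subunits S100a8 and S100a9 stood at 0.125 to 0.436 CPM in Normal and at 35.5 to 53.3 CPM and 74.8 to 85.2 CPM in IS. Lcn2, lipocalin 2, a siderophore-binding protein of neutrophils and reactive astrocytes, rose from 0.747 and 0.930 CPM to 93.6, 199 and 144 CPM (log2 fold change 7.42, adjusted p = 3.13e-05). Lcn2, S100a8 and S100a9, with means of 276, 256 and 255 TPM in IS, made up most of the summed TPM, which therefore does not measure neutrophil content alone. The receptor for granulocyte colony-stimulating factor, Csf3r, rose by 4.02. Transcripts of the granule proteins that neutrophils make while still in the marrow were at or near 0: Mpo and Ltf had no count in any of the 5 libraries, and Camp had 2, 20 and 3 counts in IS rats 2, 3 and 4 and none in Normal. Genes of other lists, such as Ppp1r15a and Isg15, also had no count in any of the 5 libraries. Whether a 0 here means that the transcript was absent was not tested.

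The lymphocyte genes were uneven. Of 8 tested T cell and NK cell genes 6 were called higher and none lower (median 3.41), and 2 were called without Normal rat 3. The 14 listed genes with an entry, tested or not, had a summed TPM of 2.68 and 1.98 in Normal. In IS rats 2, 3 and 4 the sum was 181, 179 and 469. Nearly all of the sum in IS came from Cd8a, which stood at 95.7, 106 and 305 CPM in IS. Cd3g, part of the T cell receptor complex, stood at 1.05, 0.989 and 1.38 CPM in the same rats. Cd2 rose from 0.249 and 0.116 CPM to 3.41, 4.13 and 6.75 CPM, and Lck, the kinase of the T cell receptor, from 1.31 and 1.86 CPM to 3.67, 3.78 and 3.44 CPM. The calls of Cd3g and Lck were each lost without Normal rat 1 and without Normal rat 3. In the rat, CD8 is also carried by macrophages and NK cells, and the cells that held Cd8a here were not tested. B cell genes were close to absent, with Ms4a1 at 0 counts in all IS rats, and Jchain could be tested (log2 fold change 1.72, a call lost without Normal rat 1, Normal rat 3 or IS rat 4).

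Chemokines and cytokines that attract and arm these cells rose with them. Of 16 tested CC chemokines and receptors 11 were called higher, led by the monocyte attractants Ccl2, at 0.125 and 0.174 CPM in Normal and 72.9, 67.9 and 124 CPM in IS (log2 fold change 9.11, SE 0.84, adjusted p = 4.02e-05), and Ccl7 (9.32). Ccl27 was called lower at the edge of the fold required, a call lost without Normal rat 1, IS rat 2 or IS rat 4. Of 15 CXC chemokines and receptors 11 were called higher, including the chemokine receptor Cxcr4 (4.95) and the membrane-bound ligand Cxcl16 (4.34). Cxcl12, the ligand of Cxcr4, went the other way, from 139 and 127 CPM in Normal to 64.6, 76.5 and 38.4 CPM in IS (-1.15, adjusted p = 0.00608), and that call was lost without IS rat 4 and under the correction for gene length described below (-0.58, adjusted p = 0.0662, edgeR). Of 17 genes of the interleukin 1 family and inflammasome 15 were called higher, among them the adaptor Pycard (4.27), the pore-former Gsdmd (2.85) and Il33 (2.12), the alarmin of glia. Of 19 Toll-like receptors and adaptors 16 were called higher, with the adaptor Myd88 at 2.87 and the Tlr4 partner Ly96 at 3.85, and the ubiquitin ligase Traf6 was called lower (-1.03), which was lost without Normal rat 3 or any one of the IS rats. In the interleukin 6 family 7 of 14 were called higher. Socs3, the feedback inhibitor of STAT3, rose from 1.62 and 1.16 CPM to 112, 121 and 164 CPM (6.57) and Stat3 itself by 1.86. The receptor Lifr was the 1 member called lower, from 7.34 and 14.4 CPM to 1.22, 1.53 and 1.38 CPM (-2.97). Of 15 NF-kB subunits and feedback inhibitors 6 were called higher and none lower, with the inhibitor Nfkbia at 1.91 and the subunit Rela not called (0.81). Of 16 TNF superfamily receptors 8 were called higher and none lower.

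Complement and Fc receptor genes, through which phagocytes recognise opsonised targets, rose almost without exception. Of 18 tested complement components and receptors 17 were called higher and none lower, with a median of 3.09. The 3 chains of C1q, which starts the classical pathway, moved together: C1qb rose from 45.2 and 23.7 CPM to 619, 758 and 622 CPM (log2 fold change 4.28, adjusted p = 9.95e-05), C1qc by 4.01 and C1qa by 3.71. Serping1, the inhibitor of C1, rose by 3.33. Of 11 Fc receptors and adaptors 9 were called higher, with the common gamma chain Fcer1g at 4.45 and Fcgr3a at 5.91, while Sirpa, the receptor for the CD47 signal, was not called (0.46). Of 11 scavenger and efferocytosis genes 8 were called higher, among them the receptor tyrosine kinase Axl (1.65), whereas its ligand Gas6 was not (0.93).

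Genes that cut and load peptides for display on MHC class I rose, and those of the ordinary proteasome core mostly did not pass the test. Of 11 tested immunoproteasome and class I genes 10 were called higher and none lower, with a median log2 fold change of 2.14. Of 14 constitutive core subunits 1 was called higher and none lower, with a median of 0.52. Psmb8, the catalytic subunit that replaces Psmb5 in the immunoproteasome, stood at 6.22 and 4.24 CPM in Normal and at 71.7, 81.6 and 109 CPM in IS rats 2, 3 and 4 (log2 fold change 4.06, SE 0.53, adjusted p = 0.000256). Psmb9, which replaces Psmb6, stood at 1.81 and 1.34 CPM in Normal and at 16.4, 19.0 and 25.9 CPM in IS (3.69, SE 0.55, adjusted p = 0.000493). Their constitutive counterparts were not called. Psmb5 stood at 74.7 and 56.1 CPM in Normal and at 92.8, 95.1 and 86.9 CPM in IS (0.49), and Psmb6 at 68.5 and 54.6 CPM against 89.7, 101 and 97.3 CPM (0.64). Psmb4, the 1 constitutive subunit called, had a log2 fold change of 1.15 and lost its call without Normal rat 1, Normal rat 3, IS rat 3 or IS rat 4. The activator subunit Psme1 rose by 2.52 and the class I light chain B2m from 222 and 168 CPM to 710, 599 and 1171 CPM (2.08). Calr, a chaperone of class I loading, rose by 1.07, a call lost without Normal rat 3 or IS rat 4. Of 11 genes of MHC class II presentation 10 were called higher with a median of 5.40, and the invariant chain Cd74 rose from 11.6 and 5.46 CPM to 214, 255 and 736 CPM (5.55, adjusted p = 0.000710).

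Interferon-induced genes rose in part, with 11 of 19 called higher and none lower (median 1.64), a count of 7 without Normal rat 1. The membrane proteins Ifitm3 (2.90) and Bst2 (3.73) and the transcription factor Irf8 (3.09) were called, and Stat2 (1.00 after rounding, just under the fold required) was not. Promoter sequence from RefSeq (GRCr8, a newer assembly than the mRatBN7.2 named for the counts) was searched on both strands for 10 motifs in windows of 250 bases before to 50 bases after each gene start. The motifs and lists were chosen after the values were seen. The interferon-stimulated response element, written GAAANNGAAA, was in the window of 10 of the 15 interferon-induced genes and 5 of the 8 immunoproteasome and class I genes with an entry, against 4.12% of the 27457 genes of the promoter table, 4.99% of genes called higher and 2.62% of genes called lower. The NF-kB motif GGGANTTTCC was in 5 of 13 NF-kB subunits and inhibitors and in 0.39% of all genes. The windows of B2m, Tap1, Psme2 and Nfkbia are shown up to the base before the start, since all 4 genes were called higher (Tap1 by 2.81 and Psme2 by 1.92 on the log2 scale) and hold one or both motifs, which are in capitals. Tap1 and Psme2 were chosen after their values were seen. Psmb8 and Psmb9, whose rises are given above, held neither motif in the 250 bases before their starts. The interferon motif counted for Psmb8 spans its start, and Psmb9 had none in the whole window. Each is written 5′ to 3′ on the strand of the gene.
B2m, chr3:129549080-129549329, plus strand: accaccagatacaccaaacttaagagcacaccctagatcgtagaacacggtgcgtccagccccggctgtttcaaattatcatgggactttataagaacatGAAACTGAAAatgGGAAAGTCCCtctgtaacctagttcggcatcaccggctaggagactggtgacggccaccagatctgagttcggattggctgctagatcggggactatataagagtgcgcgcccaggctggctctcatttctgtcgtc
Tap1, chr20:4668544-4668793, minus strand: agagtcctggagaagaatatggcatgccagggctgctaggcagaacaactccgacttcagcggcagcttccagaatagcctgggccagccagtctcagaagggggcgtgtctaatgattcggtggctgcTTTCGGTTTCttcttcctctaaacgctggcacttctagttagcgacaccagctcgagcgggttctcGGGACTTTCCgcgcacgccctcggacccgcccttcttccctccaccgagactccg
Psme2, chr15:33052752-33053001, minus strand: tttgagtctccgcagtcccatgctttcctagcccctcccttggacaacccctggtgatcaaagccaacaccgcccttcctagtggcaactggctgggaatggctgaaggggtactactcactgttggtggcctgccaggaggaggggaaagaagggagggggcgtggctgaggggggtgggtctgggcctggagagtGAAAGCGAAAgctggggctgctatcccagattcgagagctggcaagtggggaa
Nfkbia, chr6:78597073-78597322, minus strand: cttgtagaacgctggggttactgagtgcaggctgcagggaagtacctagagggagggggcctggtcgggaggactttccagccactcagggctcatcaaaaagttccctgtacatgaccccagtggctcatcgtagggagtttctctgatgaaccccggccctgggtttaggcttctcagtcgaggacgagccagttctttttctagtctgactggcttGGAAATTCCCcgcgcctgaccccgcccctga
In B2m and Tap1 both motifs occur, and the interferon motif begins 150 bases and 121 bases before the start. Tap1 and Psmb9 are transcribed away from each other from starts that lie 456 bases apart, so the same interval lies upstream of both. These matches describe letters in a window and were not tested for binding.

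Reactive astrocyte genes rose in every case, and genes of the ordinary transport functions of astrocytes mostly did not. All 18 tested reactive genes were called higher (median log2 fold change 4.21), and their summed TPM was 501 and 560 in Normal and 8168, 8965 and 8224 in IS rats 2, 3 and 4. Gfap, the astrocyte intermediate filament, stood at 603 and 621 CPM in Normal and at 5284, 6729 and 4343 CPM in IS (log2 fold change 3.16, SE 0.32, adjusted p = 5.96e-05). Vim, a filament of reactive glia, of vessels and of phagocytes, rose from 59.2 and 65.7 CPM to 2301, 2367 and 3178 CPM (5.39), the small heat shock protein Hspb1 by 5.85 and Timp1 by 6.83. Vim, Timp1 and Lcn2 are not restricted to astrocytes, and the phagocyte markers moved in the same rats. Of 15 transport and homeostasis genes 4 were called lower and 1 higher, with a median of -0.74. The one that rose was Glul, the enzyme that turns glutamate into glutamine, at 1575 and 1353 CPM in Normal and 3308, 2908 and 3160 CPM in IS (1.09, adjusted p = 0.00148), a call lost without Normal rat 3. S100b, Aldoc and Ndrg2 were not called (-0.74, -0.80 and -0.59), and for each of these IS rat 4 was the lowest, at 514, 314 and 449 CPM.

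Vessel genes split. Of 16 endothelial barrier and tight junction genes 2 were called higher and 1 lower, with a median of 0.04. The tight junction protein Cldn5 stood at 129 and 71.0 CPM in Normal and at 174, 205 and 159 CPM in IS (0.84, not called), and the glucose carrier Slc2a1 was not called either (0.62). The drug efflux pump Abcb1a was called lower, from 30.9 and 26.9 CPM to 13.5, 12.7 and 9.91 CPM (-1.26, adjusted p = 0.0398), a call lost when any of the 5 rats was left out. Of 12 pericyte and smooth muscle genes 5 were called higher and 1 lower: the actin-binding Tagln rose from 38.2 and 22.0 CPM to 431, 699 and 497 CPM (4.17), and the pericyte regulator Rgs5 fell from 57.0 and 64.7 CPM to 20.4, 15.1 and 15.8 CPM (-1.83, adjusted p = 0.00183). Of 15 angiogenic genes 5 were called higher and none lower. Adrenomedullin (Adm) was at 1.43 and 0.814 CPM in Normal and at 26.2, 39.5 and 74.2 CPM in IS (5.37), whereas Vegfa was not called (-0.38). Of 14 leukocyte adhesion molecules and integrins 9 were called higher, including the leukocyte integrin chains Itgb2 (4.34) and Itgam (2.79).

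Matrix, protease and clotting genes rose alongside. Of 20 metalloproteinases and inhibitors 11 were called higher, with the membrane-bound Mmp14 at 2.98, and Mmp17 (-1.67) and the neuronal Mmp24 (-1.18) were called lower, Mmp24 not without Normal rat 1. Of 40 collagens 19 were called higher and 6, a share near that of all genes, were called lower. Col4a1, of the basement membrane, rose from 47.5 and 34.7 CPM to 278, 211 and 267 CPM (2.62) and the fibrillar Col3a1 from 10.9 and 14.2 CPM to 186, 126 and 146 CPM (3.60). The 6 lower collagens were Col11a2 (-2.0), Col14a1 (-2.59), Col19a1 (-2.01), Col25a1 (-3.16), Col27a1 (-1.48) and Col4a3 (-1.61), of which Col19a1 and Col4a3 lost their calls when single rats were left out, and Col19a1 and Col27a1 under the correction for gene length. Of 12 fibroblast and meningeal genes 8 were called higher, with fibronectin (Fn1) at 3.32 and Col1a1 at 2.28, while Ptgds, the prostaglandin D synthase of the meninges and oligodendrocytes, stood at 285 and 445 CPM in Normal and at 237, 100 and 36.5 CPM in IS without a call (-1.55). Of 18 clotting and plasminogen genes 15 were called higher. Plau, the urokinase that activates plasminogen, rose from 0.747 and 0.581 CPM to 64.3, 66.3 and 117 CPM (6.94), while the tissue activator Plat was not called (0.29). Of 16 matricellular and scar genes 10 were called higher and the perineuronal net proteoglycan Acan lower (-1.70, lost without Normal rat 3). TGF-beta signaling rose in its ligand Tgfb1 and its receptors Tgfbr1 (2.44), Tgfbr2 (2.28) and Eng (2.39), with 8 of 18 higher and 2 lower. The lower ones were Smad3 (-1.60, lost without Normal rat 1 or 3 or IS rat 3 or 4) and the activity-related ligand Inhba, at 4.42 and 7.90 CPM in Normal and 0.270 to 0.350 CPM in IS (-4.31).

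Cell cycle and ribosomal protein genes were higher. Of 20 cell cycle genes 19 were called higher and none lower, with a median log2 fold change of 3.38. Cdk1, the mitotic kinase, stood at 1.18 and 0.988 CPM in Normal and at 31.6, 28.3 and 32.8 CPM in IS (4.82, SE 0.42, adjusted p = 3.57e-05), with the IS rats close together. Pcna, the clamp of DNA replication, rose by 1.78 and Ccnd1 by 2.74. Of 66 cytosolic ribosomal proteins 56 were called higher and none lower, with a median of 1.5, and Rps2 rose from 205 and 175 CPM to 668, 891 and 1215 CPM (2.28). The count of ribosomal proteins was 8 without Normal rat 3, and 38 with a median of 1.03 after the correction for gene length described below. Of 14 genes of ribosome biogenesis 3 were called higher, a share near that of all genes, among them the nucleolar Npm1 (1.35), while Ncl (0.58) was not. Polyamine and arginine genes were mixed, with 6 of 15 higher, including Odc1, which opens polyamine synthesis (1.73), and the neuronal synthase Nos1 lower, from 14.3 and 24.4 CPM to 2.89, 1.17 and 0.826 CPM (-3.52).

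Stress programs moved unevenly. Of 15 genes of the unfolded protein and integrated stress response 3 were called higher, a share near that of all genes, and none lower. Hspa5, the chaperone BiP, stood at 299 and 259 CPM in Normal and at 508, 393 and 501 CPM in IS. All 3 IS rats were above both Normal rats, but the log2 fold change was 0.74 (SE 0.21, adjusted p = 0.0154) and short of the fold required. Ddit3, the death-related factor CHOP, stood at 18.4 and 12.7 CPM in Normal and at 23.9, 42.2 and 28.6 CPM in IS (1.03, SE 0.40, adjusted p = 0.0506) and just missed the p required. Under the correction for gene length described below, the log2 fold change of Ddit3 was 0.38 (adjusted p = 0.174, edgeR). Of 12 heat shock proteins 3 were called higher and 2 lower, shares not far from those of all genes. The lower ones were Hsp90aa1 (-1.23, lost without Normal rat 3, IS rat 3 or IS rat 4) and Hsph1 (-1.18, or -0.82 and not called under the correction for gene length). Of 17 p53 targets and apoptosis genes 13 were called higher, with the survival factor Bcl2a1 at 5.58. Of 14 genes of necroptosis and ferroptosis 5 were called higher, among them the lipid enzyme Lpcat3 (1.53), and Gpx4 was not called (0.87). Of 20 annexin and S100 genes 15 were called higher, among them S100a11 (7.14) and S100a4 (5.36). The zinc-binding Mt2A rose from 26.8 and 16.7 CPM to 596, 759 and 545 CPM (4.86) and Mt1 by 3.91, whereas the neuronal form Mt3 was not called (1.51). Of 12 prostaglandin and leukotriene genes 6 were called higher, with Alox5ap at 3.73 and Tbxas1 at 4.76. Of 19 hypoxia and glycolysis genes 4 were called higher, a share near that of all genes, and 1 lower. Gapdh was not called, at 1430 and 1375 CPM in Normal and 1681, 1741 and 1615 CPM in IS (0.26).

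**Figure D3:**
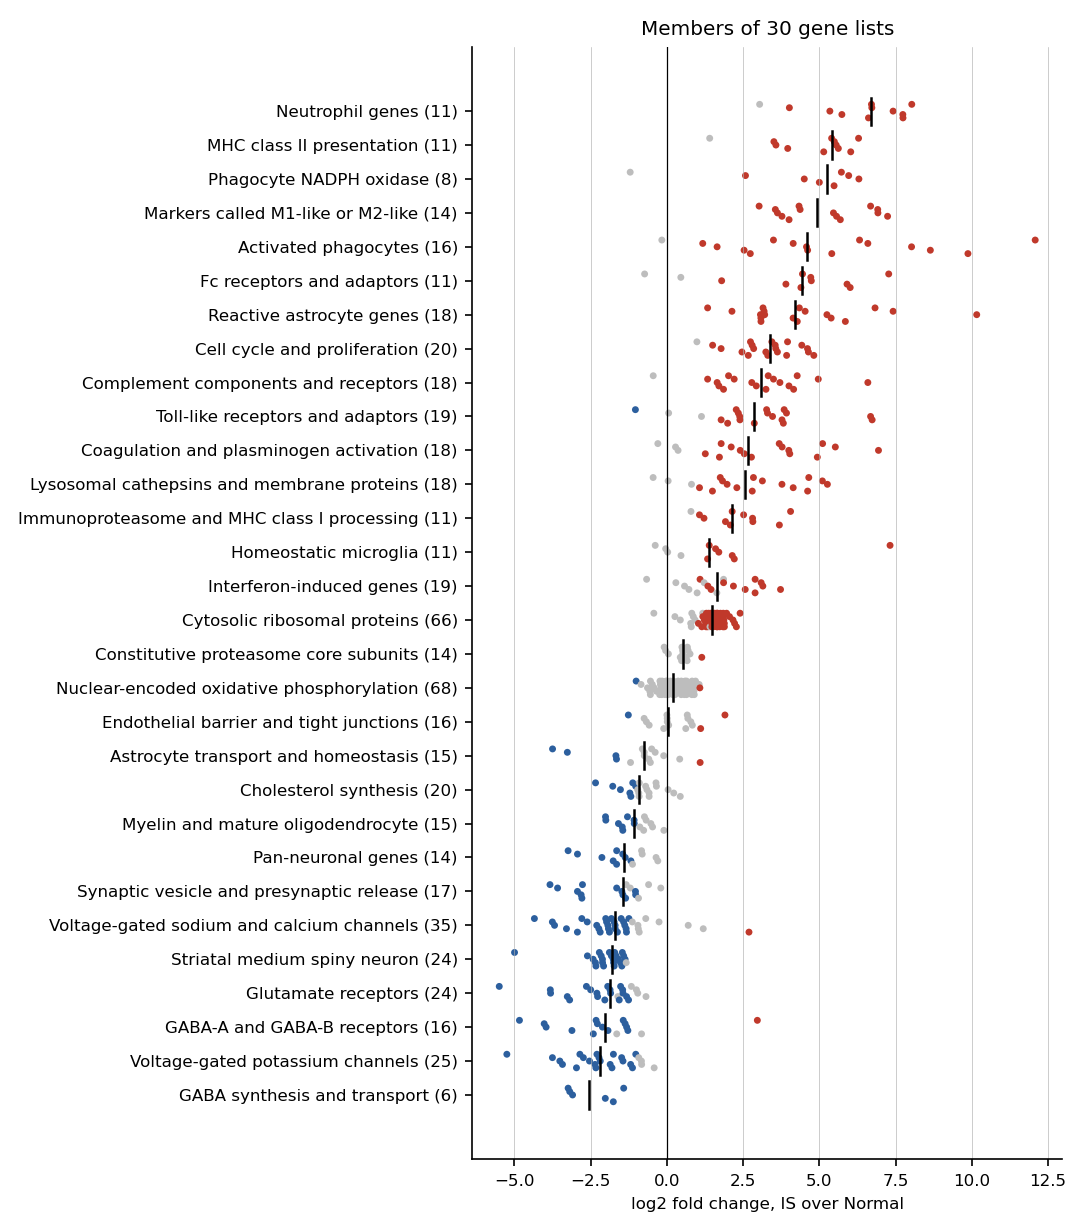
Log2 fold change of IS over Normal for the tested members of 30 gene lists (number tested in parentheses), red where called higher, blue where called lower and grey where not called, with the median of each list as a black bar. The list medians run from 6.71 for neutrophil genes to -2.55 for GABA synthesis and transport, and the proteasome core, oxidative phosphorylation and endothelial lists sit near 0.

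Genes of medium spiny neurons were lower as a group. Of 24 tested, 23 were called lower and none higher (median log2 fold change -1.78), and their summed TPM was 12870 and 12020 in the Normal rats and 2992, 6029 and 2383 in IS rats 2, 3 and 4. IS rat 3 held the most. Ppp1r1b, the dopamine- and cAMP-regulated phosphoprotein DARPP-32, stood at 2408 and 2021 CPM in Normal and at 616, 1239 and 540 CPM in IS (-1.47, adjusted p = 0.0178), a call lost without Normal rat 1, Normal rat 3, IS rat 2 or IS rat 4. Pde1b fell from 1442 and 1285 CPM to 216, 457 and 211 CPM (-2.21, SE 0.37, adjusted p = 0.000957) and Gng7, a G protein subunit of dopamine and adenosine signaling, by 2.15 on the log2 scale. Penk, the enkephalin precursor of the indirect pathway, was the 1 member not called, at 1533 and 1236 CPM in Normal and 396, 904 and 353 CPM in IS (-1.33, SE 0.52, adjusted p = 0.0529). The number of lower members was 17 without Normal rat 1, 18 without Normal rat 3, IS rat 2 or IS rat 4, and 24 without IS rat 3. Of 13 interneuron genes 9 were called lower, with somatostatin (Sst) at -1.54, neuropeptide Y (Npy) at -1.14 and parvalbumin (Pvalb) at -1.60, the last 2 not in every leave-out (Npy not without Normal rat 1, Pvalb not without Normal rat 1 or 3 or IS rat 3 or 4). Cck, also among the most abundant of the list, was not called (0.38). It stood at 37.8 and 65.4 CPM in Normal and at 130, 61.4 and 8.95 CPM in IS rats 2, 3 and 4.

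Enzymes and carriers of GABA fell in all 6 cases, with a median of -2.55. Gad1 stood at 508 and 491 CPM in Normal and at 183, 247 and 133 CPM in IS (-1.41, SE 0.28, adjusted p = 0.00249), and Gad2, the synthase of nerve terminals, at 116 and 180 CPM against 19.1, 20.1 and 9.22 CPM (-3.18). The vesicular carrier Slc32a1 fell from 278 and 287 CPM to 67.4, 123 and 60.9 CPM (-1.75). Of 16 GABA receptor genes 13 were called lower, 7 without Normal rat 3. The exception that rose was Gabrr2, a rho subunit, from 0.436 and 0.407 CPM to 2.97, 2.16 and 5.09 CPM (2.97, adjusted p = 0.00116). Gabra4, a subunit of medium spiny neurons, fell from 85.0 and 131 CPM to 17.6, 12.5 and 7.16 CPM (-3.11). Of 24 glutamate receptor genes 19 were called lower and none higher. Gria2, the AMPA receptor subunit that limits calcium entry, fell from 436 and 615 CPM to 183, 159 and 98.2 CPM (-1.84) and Grin1, the obligate NMDA subunit, from 503 and 524 CPM to 226, 286 and 134 CPM (-1.25, or -0.98 and not called under the correction for gene length).

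Ion channels and release proteins followed. Of 25 voltage-gated potassium channel genes 21 were called lower and none higher, with a median of -2.18, and Kcnd2, the A-type channel, fell from 171 and 246 CPM to 34.5, 35.4 and 9.91 CPM (-2.96). Of 35 sodium and calcium channel genes 26 were called lower. Scn2b had a log2 fold change of -1.38, a call lost without Normal rat 3. Scn7a, a sodium-sensing channel of glia and peripheral cells, rose from 0.747 and 2.67 CPM to 11.9, 12.8 and 8.81 CPM (2.70), the 1 of the 35 called higher, or 1 of 2 without IS rat 4. Of 17 synaptic vesicle genes 12 were called lower, 7 without Normal rat 3. Cplx2 fell from 608 and 624 CPM to 123, 108 and 32.5 CPM (-2.81, adjusted p = 0.00359), while Syp, synaptophysin, was not called: IS rat 2, at 772 CPM, lay between the Normal rats at 647 and 803 CPM, and IS rats 3 and 4 were at 455 and 211 CPM. Of 14 pan-neuronal genes 9 were called lower, 5 without Normal rat 3, with Snap25 at 1264 and 1581 CPM in Normal and 681, 504 and 181 CPM in IS (-1.64, lost without Normal rat 3) and Uchl1 not called (-0.35).

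Cortical genes varied between the rats of both groups. Tbr1, a transcription factor of deep cortical projection neurons, stood at 15.4 and 49.3 CPM in the Normal rats and at 62.8, 23.0 and 1.65 CPM in IS rats 2, 3 and 4, and the cortical vesicular glutamate carrier Slc17a7 at 118 and 388 CPM against 425, 138 and 14.3 CPM. The highest level of both was in IS rat 2 and the lowest in IS rat 4. Of 12 cortical genes 2 were called lower, a share near that of all genes, and none higher. The number called lower was 0 without Normal rat 3 or IS rat 4. Camk2a, shared by cortical and striatal neurons, fell from 871 and 822 CPM to 272, 199 and 83.3 CPM (-2.19), a call lost without Normal rat 1, Normal rat 3 or IS rat 4. The part that cortex in the dissected piece had in the neuronal values of each rat was not tested.

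**Figure D4:**
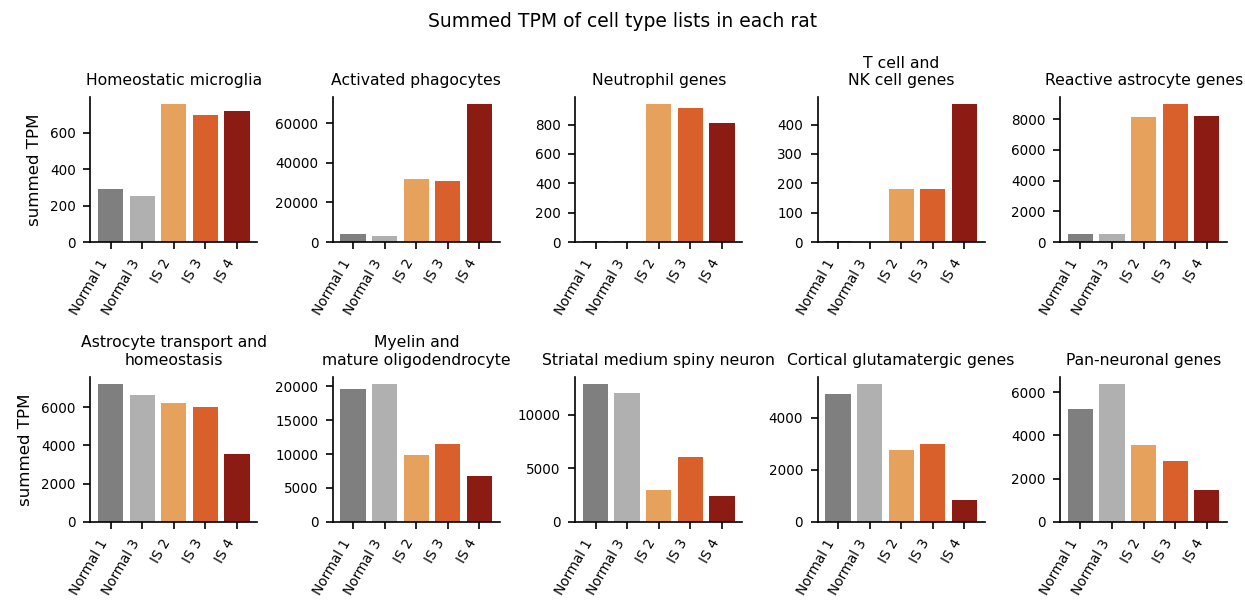
Summed TPM (y axis, from 0) of the members of 10 cell type lists, tested or not, one bar per rat, grey for Normal and orange to dark red for IS. Phagocyte, neutrophil, lymphocyte and reactive astrocyte lists are higher in each IS rat than in either Normal rat, medium spiny neuron, myelin and pan-neuronal lists are lower, and IS rat 4 is the lowest in each of the 5 lower lists.

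Activity-regulated genes moved in both directions. Of 18 immediate early genes 12 were called lower and 3, a share near that of all genes, were called higher. Arc, which neurons make on synaptic activity, fell from 278 and 189 CPM to 8.75, 22.9 and 9.78 CPM (-4.07, SE 0.53, adjusted p = 0.000238), and Egr1 from 269 and 250 CPM to 52.5, 84.8 and 56.5 CPM (-2.01). The 3 that rose are factors induced by injury and growth signals in many cells: Fosl1 (6.05), Atf3, from 0.809 and 1.16 CPM to 21.5, 28.3 and 37.7 CPM (4.87), and Jun, from 50.2 and 53.2 CPM to 137, 144 and 153 CPM (1.49). Junb was not called (0.36). Of 12 neurotrophic factors and receptors 4 were called lower, 2 without Normal rat 3, among them the neurotrophin receptor Ntrk3 (-2.34), and the growth factor Igf1 rose from 3.67 and 7.90 CPM to 34.0, 23.9 and 58.8 CPM (2.74).

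Myelin genes were lower in part. Of 15 tested 8 were called lower and none higher, with a median of -1.07 and a summed TPM of 19530 and 20320 in Normal and 9914, 11480 and 6782 in IS. Mbp, at 12220 and 9695 CPM against 4946, 7809 and 5071 CPM, did not reach the fold required (-0.88), nor did Cnp (-0.76). Of 20 genes of cholesterol synthesis, a pathway active in myelin-forming cells, 7 were called lower and none higher, with Hmgcs1 falling from 311 and 386 CPM to 133, 98.3 and 75.0 CPM (-1.77, adjusted p = 0.000660). Oligodendrocyte precursor genes had no common direction, with 1 of 12 higher, 1 lower and Olig1 (0.44) and Sox10 (-0.26) not called. Of 10 ependymal and choroid plexus genes 2 were called higher, a share near that of all genes, namely Rarres2 (1.97) and Folr1 (2.78). Kl was called lower (-2.16, lost in each of 4 leave-outs: Normal rat 3 and IS rats 2, 3 and 4).

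Some cell functions showed few calls beside 18.8% of all genes higher and 17% lower. Of 68 nuclear-encoded subunits of oxidative phosphorylation 1 was called higher and 1 lower, with a median of 0.19, and Atp5f1b stood at 1088 and 1126 CPM in Normal and at 1047, 983 and 877 CPM in IS. Of 14 autophagy genes 2 were called higher, a share near that of all genes, and none lower, with the adaptor Sqstm1 at 0.18.

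Changes followed gene length. Relative gene length was taken from the ratio of deposited counts to TPM, set to 1 at the median gene. In the shortest of 10 equal groups of genes (median relative length 0.309) the median log2 fold change of IS over Normal was 0.66, with 468 genes called higher and 116 lower, and it fell steadily to -0.69 in the longest (3.04), with 140 higher and 540 lower. The same slope appeared between the 2 Normal rats, smaller in size: the median log2 difference of rat 1 from rat 3 ran from 0.20 in the shortest genes to -0.21 in the longest. A correction for this trend, which was added once the values were known, gave 2886 genes called higher and 2338 called lower, of which 2545 and 2029 were among the genes called without it. The phagocyte, neutrophil and complement lists kept their counts (15 of 16, 10 of 11 and 17 of 18 higher) and all 24 medium spiny neuron genes were called lower. Potassium channels, whose median relative length was 1.70, went from 21 to 17 lower with a median of -1.53, sodium and calcium channels (2.38) from 26 to 24, and ribosomal proteins (0.397) from 56 to 38 higher. The part of length in the differences between the groups was not tested.

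**Figure D5:**
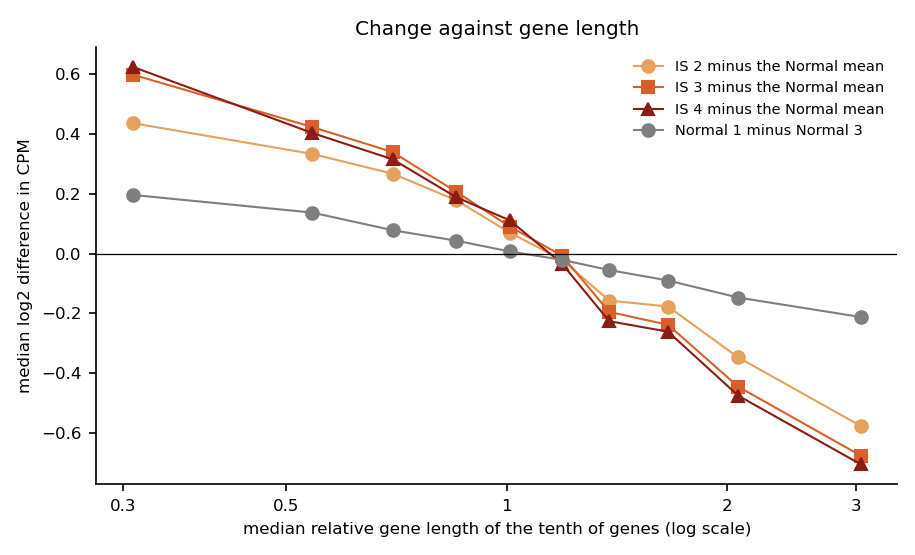
Median log2 difference in CPM (y axis) in each of 10 groups of genes by relative length (x axis, log scale), one line per IS rat against the mean of the Normal rats and one for Normal rat 1 minus Normal rat 3. The 3 IS lines fall from between 0.44 and 0.62 in the shortest group to between -0.58 and -0.70 in the longest, and the Normal line falls from 0.20 to -0.21.

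IS rat 4 was the highest of the 3 in 76.9% of the genes called higher and the lowest of the 3 in 76.1% of those called lower, and the highest in 35.8% of the 10109 genes not called. These shares describe the libraries that made the calls. Of the 3 IS libraries, that of rat 4 also had the fewest counts. The IC rats received 0.2 U of the same enzyme in 1.0 µL. Hmox1 stood at 474, 912 and 697 CPM in IC rats 2, 3 and 4, Spp1 at 1008, 3721 and 2303 CPM, and Pde10a at 71.7, 45.6 and 45.3 CPM. For these 3 genes each IC rat lay between the Normal and the IS rats, and the difference between IS and IC is not given here as a test.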

How the data were processed

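Poly(A) RNA of the striatum was sequenced as paired-end reads of 150 bases, 1 library per rat. The authors deposited unnormalized whole-number counts for each gene, beside TPM, in which the authors divided counts by gene length and scaled each library to 1000000. The submitters' processing notes name fastp 0.20.0, FastQC 0.11.9, HISAT2 2.1.0, SAMtools 1.9, featureCounts of Subread, DESeq2 and the build mRatBN7.2. Strand use is not given in the sources used here, so overlapping and antisense genes cannot be told apart, and reads shared by near-identical copies (ribosomal proteins, MHC genes, globins) may have been split or dropped. The columns left unmatched to a sample were 0.

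Genes were filtered with filterByExpr, normalized by TMM and fitted with edgeR 4.0.16 (quasi-likelihood, R 4.3.3) over all 11 libraries in 4 groups, because Normal had 2 libraries. The fit was tested on simulated data before use, where many changes no larger than the fold required were not called. Standard errors were the absolute log2 fold change over the square root of F. The floor of 3 counts was 0.187 and 0.174 TMM-normalized CPM in Normal rats 1 and 3 and 0.262 to 0.413 in the IS rats. Floors and exact intervals cover counting error only, since reads carried no molecular identifiers.

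Named were the 12 largest rises and falls with a mean TPM of at least 10, up to 4 members of highest mean TPM per list with any member called against its list, and genes that the study measured by other means. The members, the 69 lists and the comparison were chosen with earlier results of these data known. Alternatives were other normalizations (DESeq2 size factors, library size alone, TMM without 16 erythroid and mitochondrial genes), DESeq2 1.42.0, limma 3.58.1 with voom or on log2(TPM + 1), glmTreat, the adjusted p alone, other filters, only the 5 libraries, the replicate number as a block, a correction for gene length and each library left out. Some genes of these lists are counted with their list but not reported here by name. Promoter sequences were taken from RefSeq by Entrez identifier. Plots used Python 3.11.15 and matplotlib 3.10.9.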

Additional observations from a re-analysis of the deposited data

How the results depend on the processing

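Of 2959 genes higher and 2674 lower in IS, the other normalizations, filters, tools and cutoffs gave 2582 to 3908 and 2158 to 3802, within 1.5 times of the reported counts, with these exceptions. A test against a fold of 2 (glmTreat) called 1702 higher and 989 lower, each of them among the genes reported. A replicate block over the 11 libraries called 1827 higher and 869 lower. IS and Normal share only the number 3, and the deviations of those libraries from their group means had a correlation of -0.05. Over 11 same-numbered pairs it ran from -0.48 to 0.36. Deviations of the 2 Normal libraries mirror each other, so these values cannot tell whether a number marks a shared batch. Leaving out 1 of the 5 libraries gave 2109 to 3002 genes higher and 1524 to 2878 lower, in both cases lowest without Normal replicate 3. Without IS-HA replicate 2, a rat with hematoma aspiration that enters only through the spread (an alternative added once the data had been seen), 3136 were higher and 2878 lower. Scaling by library size alone raised the median log2 fold change of all genes to 0.15 and gave 3331 higher and 2158 lower.

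No called gene of the text changed sign under these alternatives. Of 172 called genes 36 lost the call with the replicate block, 31 under glmTreat, 23 without Normal replicate 3, 15 without IS replicate 4, 14 without Normal replicate 1, 12 under the correction for gene length (Abcb1a, Calr, Ccl27, Col19a1, Col27a1, Cxcl12, Grin1, Hsph1, Jchain, Mmp24, Psmb4 and Traf6), and 10 or fewer under each other alternative. Signs changed in 6 genes that were not called, not counting Cck, which was 0.38 as reported and -0.26 with the correction for gene length. Tfrc (reported 0.19) was -0.16 with voom, -0.23 with the replicate block and -0.28 to 0.47 with 1 library left out. Tbr1 (reported -0.14) was 0.022 by library size alone, 0.067 with the correction for gene length and -1.36 to 0.93 with 1 library left out. With 1 library left out Slc17a7 was -1.72 to 0.71 and Plat -0.10 to 0.82. Psmb5 was -0.13 and Psmb6 -0.02 with the correction for gene length. The causes were not tested. Depth limits genes at 1 to 3 counts in a group, given above as ratios with intervals.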
